A study of Mus musculus with 10 samples.

Results

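Microglial identity transcription factors are described here by 9 genes, Sall1, Mef2a, Mef2c, Spi1, Irf8, Runx1, Maf, Cebpa and Cebpb. They were chosen by symbol, and all 9 of the 9 symbols were listed in every one of the 10 single cell tables, among 18292 gene symbols in all. Microglia were sorted as live, CD11b high and CD45 intermediate cells from C57BL/6 mice and profiled with the 10x Genomics 3' v2 kit, in 5 groups of 2 libraries. Adult microglia came fresh from the brains of mice aged 10 to 15 weeks. Slice microglia came from brain slices, cut without the cerebellum from pups of postnatal day 1 to 4 and kept in culture for 1 day, 1 week or 3 weeks, with several slices pooled as required. In vitro microglia were collected at day 22 from the medium of mixed glial cultures made from postnatal day 2 cortices. The labels give no genotype change or treatment beyond the culture, and adult and cultured cells differed in the age of the mice as well as in culture, which cannot be told apart. Both samples of a group are described by the study as independent, without saying whether that means separate animals or cultures. The p-values therefore measure the spread between these libraries.

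Transcription factors bind regulatory DNA and set which genes a cell uses. PU.1, the product of Spi1, is the ETS factor that opens the enhancers of myeloid cells, where it works with IRF8, RUNX1 and the C/EBP proteins. MEF2 proteins and SALL1 are counted among the factors that add the microglial programme to this shared macrophage base, and SALL1 is, within the brain, largely a gene of microglia. C/EBP beta and c-MAF are also known from macrophages of many tissues and from their activation.

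The tables listed 19637 barcodes, of which 19059 passed the limits on mitochondrial UMIs, genes and total UMIs. Cells per library ran from 61 (slice 1 week replicate 2) to 3799 (adult replicate 1), where the labels give about 1000 cells per sample as input. Total UMIs ran from 385373 to 39689540, and the median cell held between 1858 UMIs (adult replicate 2) and 13966 UMIs (in vitro replicate 2). All 9 microglial markers had UMIs in every library, at a summed 36587 to 37846 CPM (a gene's UMIs scaled to a common library total) in adult and 5506 to 20890 CPM in the other groups. Neutrophil markers (9 genes) summed to 7772 and 23074 CPM in the slice 1 day libraries and to 41311 and 955 CPM in the slice 1 week libraries, against 1.18 to 8.80 CPM in the other 6. At most 23 barcodes were shared by any 2 libraries. Adult replicate 1 and slice 3 weeks replicate 1 carried another study label than the other 8 libraries.

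For each library a single count per gene was formed from all its cells, and edgeR fitted the 10 libraries together, with 12157 genes tested. A gene was called at an adjusted p below 0.05 and a fold change above 1.5. All 9 factors passed the filter on low counts. Levels below are CPM scaled by the TMM factors of edgeR, and give a share of a library's RNA. The 4 comparisons with adult use the same 2 adult libraries and are not independent of each other.

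In vitro against adult, Sall1, Mef2a, Mef2c and Irf8 were lower and none of the 9 factors was called higher. Over all genes tested, 28.5% were called lower and 22.4% higher. In slice 1 day against adult, Sall1, Mef2a, Mef2c, Irf8 and Maf were lower and Cebpb was higher, beside 25.3% of all genes lower and 24.9% higher. Slice 1 week against adult gave the same split for these 6 genes, 5 lower and 1 higher, with 13.6% of all genes lower and 15% higher. In slice 3 weeks against adult, 4 factors were lower (Sall1, Mef2c, Spi1 and Maf) and 0 higher, with 17.5% of all genes lower and 17.9% higher. In vitro against slice 3 weeks, Sall1, Mef2a, Mef2c and Irf8 were lower and Maf was higher (4 and 1 of 9), beside 19.9% of all genes lower and 13.3% higher. From slice 1 day to slice 3 weeks, Sall1, Mef2a, Irf8 and Maf were higher and Spi1 and Cebpb lower (4 and 2 of 9), beside 13.9% of all genes higher and 12.8% lower. The median log2 fold change of the 9 factors against adult was −0.48 in vitro, −1.10 at 1 day, −0.62 at 1 week and −0.47 at 3 weeks, against −0.11, −0.06, −0.08 and −0.03 over all genes tested. Counted per cell and not per library total, the falls of Sall1 in vitro and at 1 day were the only falls against adult still called, most others changed sign, and Cebpb stayed higher at 1 day and 1 week. On that scale 80.3% of all genes tested were called higher than in adult and 4.7% lower in vitro, with 67.9 and 3.49% for slice 1 day, 44 and 1.35% for slice 1 week, and 55.9 and 2.76% for slice 3 weeks. Some calls were lost without a single library, in fits that left a lone library in its group and called fewer of all genes. Without slice 1 week replicate 1, which leaves the 61 cells of replicate 2, the folds at 1 week stayed near those with both libraries. They were −1.18 for Sall1, −1.16 for Mef2a, −0.60 for Irf8, −0.68 for Maf and 1.27 for Cebpb, and these calls were lost. Without slice 1 day replicate 2, the calls of Mef2a (1.24), Irf8 (0.58) and Cebpb (−1.30) from 1 day to 3 weeks were lost.

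**Figure D1:**
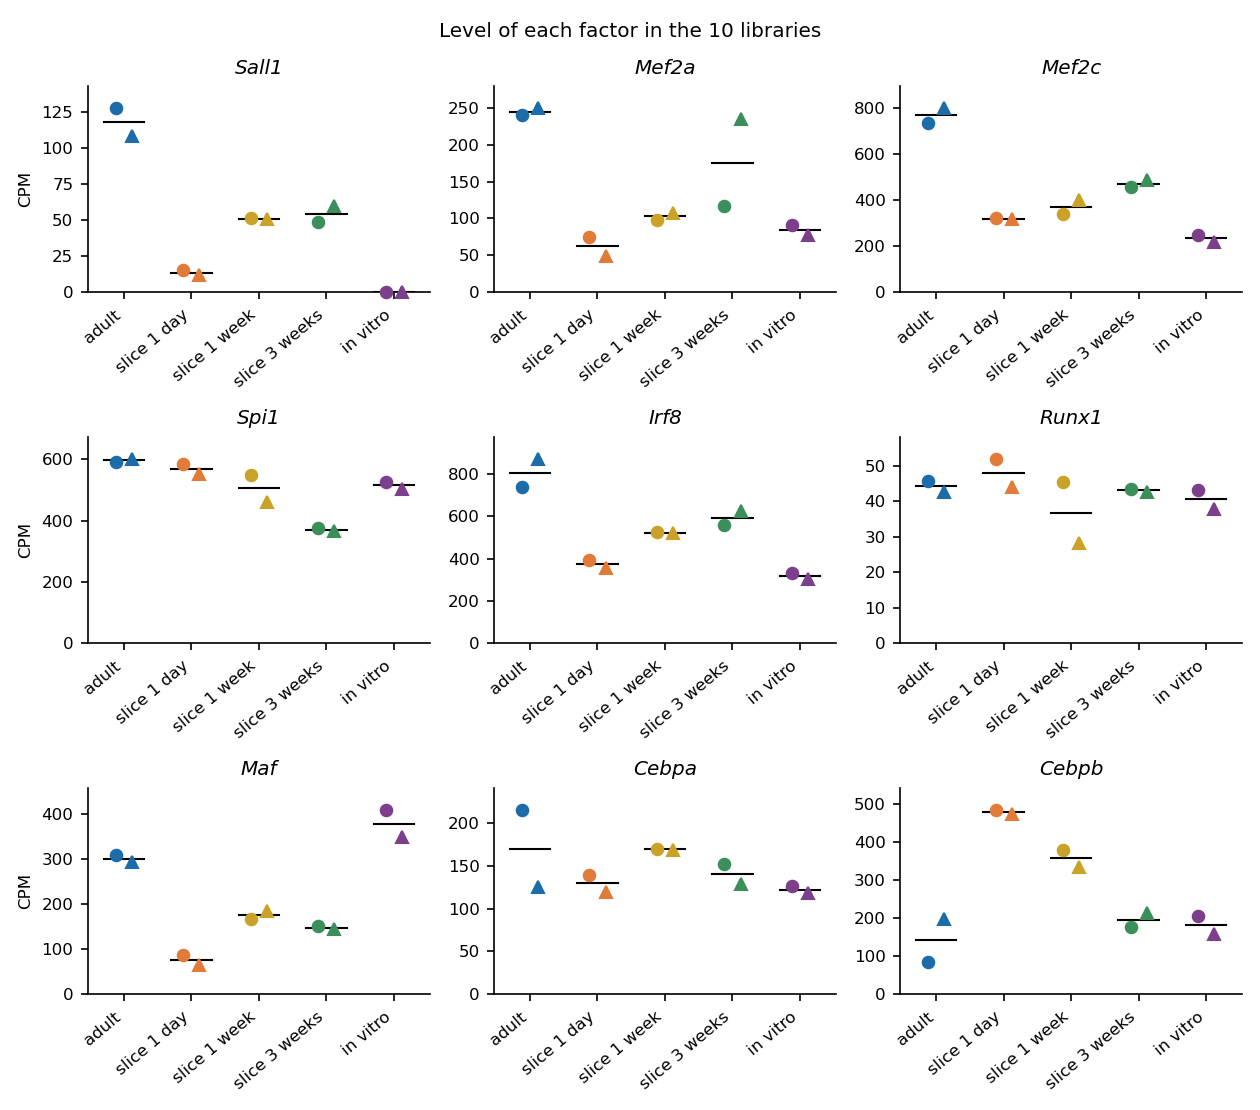
Level of each factor (CPM, vertical axis from 0) in the 2 libraries of each group; circles are replicate 1, triangles replicate 2 and horizontal lines the group means. Sall1 ran from 118 CPM in adult to 0.203 CPM in vitro, Cebpb was highest at 1 day (479 CPM), and the Runx1 group means stayed between 36.8 and 47.9 CPM.

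Sall1, a zinc finger factor, showed the widest range of the 9 on the log2 scale. Its gene lies at chr8:89027242-89044162 (RefSeq, GRCm38). Its level was 128 and 108 CPM in the adult libraries, 15.2 and 12.1 CPM at 1 day, 51.4 and 51.2 CPM at 1 week, and 49.2 and 59.9 CPM at 3 weeks. In vitro it was 0.321 and 0.0842 CPM, from 10 and 3 UMIs in libraries of 33957132 and 39689540 UMIs. All cultured libraries lay below both adult libraries, and in the order of the groups adult, slice 3 weeks, slice 1 week, slice 1 day and in vitro, the libraries of slice 3 weeks and slice 1 week overlapped while the other neighbours did not.

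The log2 fold change of Sall1 against adult was −9.17 ± 0.34 in vitro (SE, edgeR, adjusted p = 3.06e-08), −3.15 ± 0.24 at 1 day (4.45e-06), −1.21 ± 0.26 at 1 week (0.00613) and −1.11 ± 0.21 at 3 weeks (0.00200). The adult mean was 368 times the level of in vitro replicate 1, with an exact Poisson interval of 200.1 to 768 from its count, and 1404 times that of replicate 2, with an interval of 480 to 6808. Sall1 was also higher in slice 3 weeks than in slice 1 day, by 2.03 ± 0.23 (adjusted p = 0.000333), and lower in vitro than in slice 3 weeks, by −8.06 ± 0.33 (2.34e-07).

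Mef2a and Mef2c encode MADS box factors of the MEF2 family. Mef2c (chr13:83504017-83667079) was at 736 and 799 CPM in adult, 322 and 316 CPM at 1 day, 339 and 399 CPM at 1 week, 456 and 486 CPM at 3 weeks, and 249.8 and 220.0 CPM in vitro. No 2 groups overlapped, and the order was adult, slice 3 weeks, slice 1 week, slice 1 day and in vitro. Mef2c was lower than in adult in all 4 cultured groups, by −1.71 ± 0.15 in vitro, −1.27 ± 0.15 at 1 day, −1.06 ± 0.15 at 1 week and −0.70 ± 0.15 at 3 weeks (SE, edgeR, adjusted p from 6.00e-06 to 0.00341). From 1 day to 3 weeks its difference was 0.56 ± 0.15 (adjusted p = 0.0157), which is under the fold threshold, and it was called under 5 alternatives, at 0.60 to 0.66. The 5 neuron markers, of interest since neurons also use Mef2c, summed to 52.7 and 25.9 CPM at 1 week and to between 0.454 and 10.1 CPM in the other libraries; their part in the Mef2c level was not tested.

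Mef2a (chr7:67231163-67376456) was at 239.6 and 249 CPM in adult, 75.0 and 49.8 CPM at 1 day, 97.8 and 107 CPM at 1 week, and 90.5 and 78.1 CPM in vitro. The slice 3 weeks libraries differed from each other, at 116 and 235 CPM. Mef2a was lower than in adult in vitro (−1.54 ± 0.29, adjusted p = 0.00115), at 1 day (−1.98 ± 0.30, 0.000321) and at 1 week (−1.26 ± 0.32, 0.0136), and at 3 weeks the difference of −0.47 ± 0.29 did not pass (edgeR, 0.214). Within the study labels, slice 3 weeks replicate 1 had 0.485 times the level of the adult library of its label, and replicate 2 had 0.942 times that of its own. Mef2a was higher in slice 3 weeks than in slice 1 day by 1.51 ± 0.30 (adjusted p = 0.00434), and without slice 1 day replicate 2 this value was 1.24 (0.0528). Against adult at 3 weeks it was called without slice 3 weeks replicate 2 (−1.01, 0.0101). The call of Mef2a in vitro against slice 3 weeks (−1.06 ± 0.29, 0.0148) rested on slice 3 weeks replicate 2: without it the difference was −0.40 (0.206), and it was also lost without in vitro replicate 1 (−1.09, 0.0634) or replicate 2 (−0.88, 0.129).

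Irf8 (chr8:120736358-120756694) encodes an interferon regulatory factor that microglia and other myeloid cells need for their development. It was at 739 and 870.4 CPM in adult, 396 and 354 CPM at 1 day, 524 and 522 CPM at 1 week, 557 and 625 CPM at 3 weeks, and 333 and 303 CPM in vitro. No 2 groups overlapped, and the group order was that of Mef2c. Irf8 was lower than in adult in vitro (−1.34 ± 0.15, adjusted p = 3.44e-05), at 1 day (−1.10 ± 0.15, 0.000163) and at 1 week (−0.62 ± 0.15, 0.0112). At 3 weeks its difference of −0.45 ± 0.15 was under the fold threshold (edgeR, 0.0350). It was higher at 3 weeks than at 1 day by 0.66 ± 0.15 (0.00867) and lower in vitro than at 3 weeks by −0.89 ± 0.15 (0.00114). The calls at 1 week and from 1 day to 3 weeks lay near the fold threshold. The first was also lost without adult replicate 2 (−0.51, 0.0691), slice 1 day replicate 2 (−0.57, 0.0281) or slice 1 week replicate 1 (−0.60, 0.0872), and the second without slice 1 day replicate 2 (0.58, 0.0903) or slice 3 weeks replicate 2 (0.58, 0.0340). Without the neutrophil-rich barcodes described below, the first was −0.57 (0.0140) and not called, and the second 0.59 (0.0109) and still called.

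**Figure D2:**
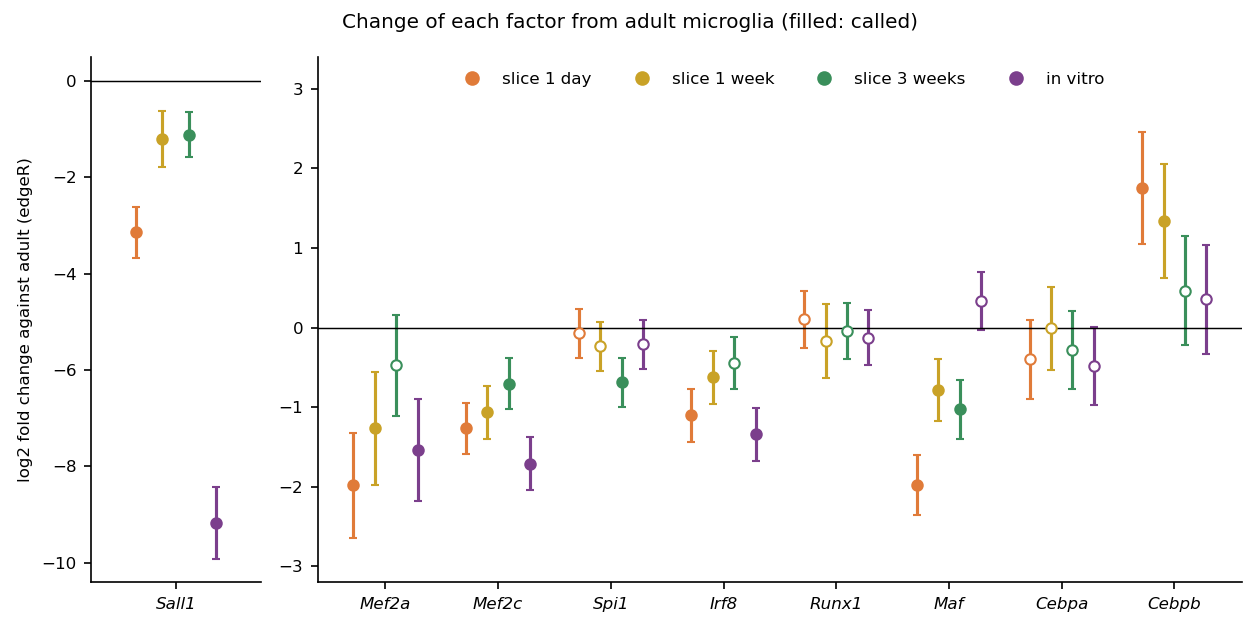
Log2 fold change against adult (edgeR, vertical axis) of each factor in slice 1 day, slice 1 week, slice 3 weeks and in vitro microglia, with 95% intervals; filled circles were called, open circles were not. Sall1 has an axis of its own, since its in vitro value was −9.17, while Runx1 and Cebpa had no filled circle and Cebpb had filled circles above 0 at 1 day and 1 week only.

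RefSeq promoter windows (GRCm38.p6), each of 300 bases from 250 before to 50 after a start site, were at hand for 7 of the 9 factors, with 13 windows in all. They were searched on both strands for 6 short motifs of the families the 9 factors belong to. These were GAGGAA (PU.1, ETS), TGTGGT (RUNX), TTNNGCAA (C/EBP), TGCTGA (MAF), GAAANNGAAA (IRF) and CTANNNNTAG (MEF2), where N is any base. The first windows of Sall1 (chr8:89044113-89044412, minus strand), Mef2a (chr7:67372809-67373108, minus strand), Mef2c (chr13:83503784-83504083, plus strand) and Irf8 (chr8:120736108-120736407, plus strand) are shown because these 4 genes were lower both in vitro and at 1 day, and that of Runx1 (chr16:92826025-92826324, minus strand) because its level did not pass any test and its window holds matches of its own family. Capitals mark a match.
Sall1: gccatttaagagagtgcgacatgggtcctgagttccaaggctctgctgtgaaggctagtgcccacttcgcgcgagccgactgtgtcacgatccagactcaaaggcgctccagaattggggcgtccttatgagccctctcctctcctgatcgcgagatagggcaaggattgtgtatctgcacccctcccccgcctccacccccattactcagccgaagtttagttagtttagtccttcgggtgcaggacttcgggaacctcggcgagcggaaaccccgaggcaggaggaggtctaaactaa
Mef2a: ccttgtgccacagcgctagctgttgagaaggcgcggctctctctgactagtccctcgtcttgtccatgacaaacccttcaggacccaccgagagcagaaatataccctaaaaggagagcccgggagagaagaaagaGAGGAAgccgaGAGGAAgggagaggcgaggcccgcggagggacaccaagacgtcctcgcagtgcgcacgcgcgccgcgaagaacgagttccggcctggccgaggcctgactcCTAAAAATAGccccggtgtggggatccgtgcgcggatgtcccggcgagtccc
Mef2c: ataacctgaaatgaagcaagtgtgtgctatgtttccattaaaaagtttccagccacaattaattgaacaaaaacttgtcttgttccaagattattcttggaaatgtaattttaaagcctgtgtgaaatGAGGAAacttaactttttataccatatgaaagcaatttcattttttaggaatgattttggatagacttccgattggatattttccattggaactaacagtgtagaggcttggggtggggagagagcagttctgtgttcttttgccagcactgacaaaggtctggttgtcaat
Irf8: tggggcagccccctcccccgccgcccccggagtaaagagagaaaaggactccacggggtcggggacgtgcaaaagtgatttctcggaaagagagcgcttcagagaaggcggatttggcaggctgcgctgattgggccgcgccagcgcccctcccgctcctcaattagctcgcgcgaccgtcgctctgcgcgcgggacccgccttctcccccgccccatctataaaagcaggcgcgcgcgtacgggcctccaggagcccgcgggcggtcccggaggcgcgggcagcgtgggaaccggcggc
Runx1: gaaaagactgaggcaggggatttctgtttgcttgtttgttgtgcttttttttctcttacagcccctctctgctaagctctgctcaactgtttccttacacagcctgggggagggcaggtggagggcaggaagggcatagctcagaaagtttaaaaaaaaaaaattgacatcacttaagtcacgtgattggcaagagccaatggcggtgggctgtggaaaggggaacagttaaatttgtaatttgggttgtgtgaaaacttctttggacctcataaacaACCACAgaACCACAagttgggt

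The Mef2a window held a MEF2 match and 2 GAGGAA matches, and the first Runx1 window 2 RUNX matches, read on the other strand. The first Mef2c window held 1 GAGGAA match, and those of Sall1 and Irf8 held no match to these letters. Of all 32851 promoter windows, 3.69% held the MEF2 letters, 28.3% GAGGAA and 16.8% the RUNX letters, so that matches of the latter kinds are common. Among the 13 windows of the factors, 4 held GAGGAA, 1 the RUNX letters, 2 the MAF letters (19.5% of all windows), 1 the MEF2 letters and 0 the C/EBP (10.8%) or IRF (3.44%) letters. No match overlapped another. A match is a description of the letters and was not tested as a binding site.

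Spi1 and Runx1 stood apart from these 4 genes in their CPM. Spi1 (chr2:91082374-91115759) was at 592 and 600.0 CPM in adult, 583 and 553 CPM at 1 day, 548 and 461 CPM at 1 week, 527 and 503 CPM in vitro, and 374 and 367 CPM at 3 weeks. The slice 3 weeks libraries lay below all others, and the in vitro and slice 1 week libraries overlapped. Its log2 fold change against adult was −0.69 ± 0.14 at 3 weeks (edgeR, adjusted p = 0.00309), and −0.21 ± 0.14 in vitro (95% interval −0.52 to 0.09, 0.216), −0.07 ± 0.14 at 1 day (−0.38 to 0.24, 0.689) and −0.24 ± 0.14 at 1 week (−0.55 to 0.08, 0.235). Spi1 was lower at 3 weeks than at 1 day by −0.62 ± 0.14 (0.00854), a call that was lost without the neutrophil-rich barcodes (−0.54, 0.00941) and without slice 1 day replicate 1 (−0.58, 0.0518). In vitro against slice 3 weeks it differed by 0.47 ± 0.14 (0.0210), under the fold threshold.

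Runx1 (chr16:92601466-92826074), a RUNX factor of blood formation, was at 45.9 and 42.8 CPM in adult, 51.9 and 44.0 CPM at 1 day, 45.5 and 28.1 CPM at 1 week, 43.5 and 42.8 CPM at 3 weeks, and 43.3 and 37.9 CPM in vitro. Every group overlapped with its neighbours in the order of levels. The lowest value, of slice 1 week replicate 2, came from 11 UMIs. The log2 fold changes of the 6 comparisons ran from −0.17 to 0.10 with adjusted p from 0.516 to 0.868, and the 95% interval of the in vitro difference from adult was −0.48 to 0.22.

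Maf (chr8:115703253-115706894), which encodes c-MAF of the large MAF factors, lay on opposite sides of adult in the slices and in vitro. Its level was 309 and 292 CPM in adult, 87.5 and 65.5 CPM at 1 day, 166 and 184 CPM at 1 week, 150.3 and 144 CPM at 3 weeks, and 408 and 349 CPM in vitro. No 2 groups overlapped, with in vitro highest and slice 1 day lowest. Maf was lower than in adult at 1 day (−1.98 ± 0.17, edgeR, adjusted p = 9.54e-06), 1 week (−0.79 ± 0.17, 0.00701) and 3 weeks (−1.03 ± 0.16, 0.000800), and in vitro the difference of 0.33 ± 0.16 did not pass (0.106). In vitro against slice 3 weeks it was higher by 1.36 ± 0.17 (0.000167), and in slice 3 weeks against slice 1 day by 0.95 ± 0.17 (0.00245). The 6 markers of border-associated macrophages, which also use Maf, summed to 2270 and 2132 CPM in vitro, where all 6 had UMIs and 96.6% and 97.3% of cells held 3 or more of their UMIs. They summed to 45.5 to 316 CPM in the slices and to 5.74 and 11.1 CPM in adult, where Lyve1 and Cbr2 were at 0 in replicate 2. In vitro this sum was mostly Pf4, a chemokine gene at 1873 and 1788 CPM, and Mrc1, the mannose receptor gene at 351 and 306 CPM. Lyve1 (0.648 and 0.277 CPM) and Cd163 (0.736 and 1.11 CPM) were lower in vitro than in both slice 1 day libraries, at 4.64 and 6.19 CPM for Lyve1 and 2.18 and 1.57 CPM for Cd163. Their part in the Maf level was not tested. Without barcodes holding 3 or more UMIs of other cell types, 56 and 43 in vitro cells were left. In that fit Maf lay −0.69 from adult and was called lower, and it lay 0.28 from slice 3 weeks, where the call was lost. This fixed cut removed 97.7 and 98.4% of the deeper in vitro cells, but 19.4 and 2.67% of adult cells.

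Cebpa and Cebpb encode C/EBP alpha and beta, leucine zipper factors of myeloid genes. Cebpb (chr2:167688915-167690432) was at 484 and 473 CPM at 1 day, 378 and 335 CPM at 1 week, 178 and 213 CPM at 3 weeks, 206 and 158 CPM in vitro, and 85.9 and 198 CPM in adult. The slice 1 day and slice 1 week libraries lay above all others, while those of slice 3 weeks, in vitro and adult overlapped. Cebpb was higher than in adult at 1 day (1.75 ± 0.32, edgeR, adjusted p = 0.000961) and 1 week (1.34 ± 0.32, 0.0108), but not called at 3 weeks (0.46 ± 0.31, 0.261) or in vitro (0.36 ± 0.31, 0.345). It was lower at 3 weeks than at 1 day by −1.29 ± 0.31 (0.0118), and without slice 1 day replicate 2 this value was −1.30 (0.0572).

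The adult libraries decided part of this. Without adult replicate 2, Cebpb was called higher in vitro (1.08, 0.00376) and at 3 weeks (1.18, 0.00490) as well. Within the study labels, slice 3 weeks replicate 1 had 2.07 times the Cebpb level of the adult library of its label, and replicate 2 had 1.07 times that of its own. Cebpa (chr7:35119293-35121928) showed the mirror image in adult, at 215 and 125 CPM. It was at 139 and 119.7 CPM at 1 day, 170.0 and 169 CPM at 1 week, 152 and 129 CPM at 3 weeks, and 126 and 118 CPM in vitro, and it was called in none of the 6 comparisons, with adjusted p from 0.0869 to 0.993 in edgeR. Without adult replicate 2 it was called lower in vitro (−0.82, 0.00461), at 1 day (−0.73, 0.00898) and at 3 weeks (−0.61, 0.0308).

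Counts of cells were compared after every cell had been thinned to 1800 UMIs, since the number of UMIs per cell differed between groups. This kept 16910 cells and left out 2149 shallower ones, of which 1618 were in adult replicate 2. Sall1 had a UMI in 22.7% (exact binomial interval 21.3 to 24.2%) and 19.8% (18.0 to 21.7%) of adult cells, in 2.64 and 2.66% at 1 day, 8.63 and 1.92% at 1 week (12 of 139 and 1 of 52 cells), and 7.43 and 9.79% at 3 weeks. In vitro it was found in 0 of 2417 and 0 of 2682 cells. An approximate upper limit, 3 over the number of cells, is 0.124 and 0.112% of cells with a UMI at 1800 UMIs each. This sets no limit on cells that express Sall1. Without thinning, Sall1 was found in 35.6 and 20.3% of adult cells, 9.65 and 10.5% at 1 day, 19.6 and 18.0% at 1 week, 24.0 and 25.3% at 3 weeks, and 0.372 and 0.0746% in vitro. The thinned shares of Sall1 in every cultured library lay below those of both adult libraries.

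The other factors that were lower in CPM were also found in fewer of the thinned cells. Irf8 was found in 75.7 and 80.7% of adult cells and 42.0 and 38.3% of in vitro cells, and Mef2c in 75.8 and 78.8% and in 35.6 and 30.7%. Maf was found in 44.8 and 42.6% of adult, 13.01 and 11.8% of slice 1 day and 47.0 and 42.0% of in vitro cells. Spi1 was found in 45.8 to 69.8% of cells in all libraries, and Cebpb in 15.03 and 32.7% of adult and 47.2 and 48.4% of slice 1 day cells. These shares are a description, since 2 libraries against 2 cannot give a permutation p below 0.3333, and their intervals cover counting error only.

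**Figure D3:**
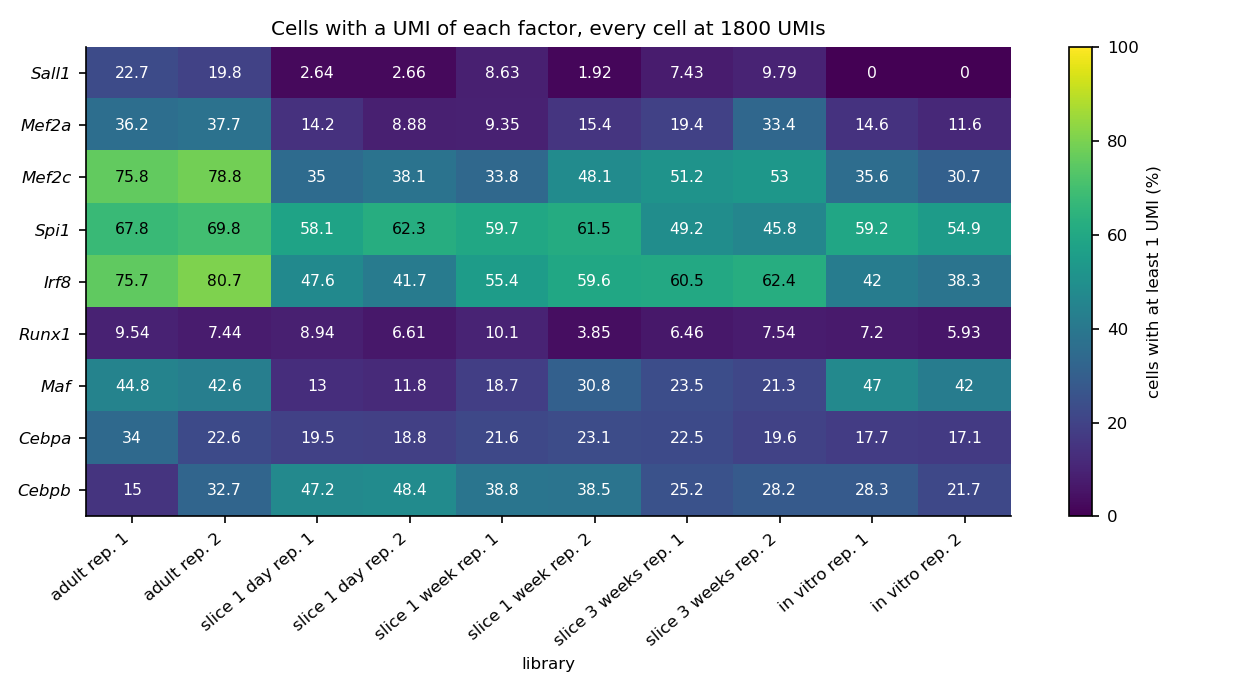
Percent of cells with at least 1 UMI of each factor (rows) in each library (columns), after thinning every cell to 1800 UMIs; the colour scale runs from 0 to 100%. Sall1 was at 0% in both in vitro libraries and 22.7 and 19.8% in adult, and Mef2c and Irf8 were at 75.7 to 80.7% in adult and at most 62.4% elsewhere.

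Scaling decides what lower means here, because the cultured cells held more UMIs. Per cell, the median of all genes tested was higher than in adult by 2.04 (log2) in vitro, 1.49 at 1 day, 1.104 at 1 week and 1.05 at 3 weeks. Sall1 had 46.0 and 23.9 UMIs per 100 cells in adult, 33.0 and 34.4 at 3 weeks, 11.2 and 11.5 at 1 day and 0.414 and 0.112 in vitro. On this scale it stayed lower in vitro (−7.05, edgeR, adjusted p = 3.23e-41) and at 1 day (−1.62, 4.64e-05), and at 1 week (−0.03) and 3 weeks (−0.05) it was not called. Mef2c, at 264 and 176 UMIs per 100 cells in adult and 322 and 292 in vitro, turned from −1.71 to 0.48 (0.223), Mef2a from −1.54 to 0.64 (0.0849) and Irf8 from −1.34 to 0.86 (0.0290, called higher). Spi1, with 213 and 132 UMIs per 100 cells in adult and 679 and 668 in vitro, turned to 1.97 (1.34e-06) and Runx1 to 2.03 (5.02e-08). Relative to the median of all genes on the same scale, the signs of the called factors were those of the CPM. From 1 day to 3 weeks, Sall1 (1.56), Mef2a (1.05), Spi1 (−1.05) and Cebpb (−1.75) were called per cell as well, where 2.7% of all genes were called higher and 17% lower. In vitro against slice 3 weeks, per cell, 52.7% of all genes were called higher and 5.54% lower.

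**Figure D4:**
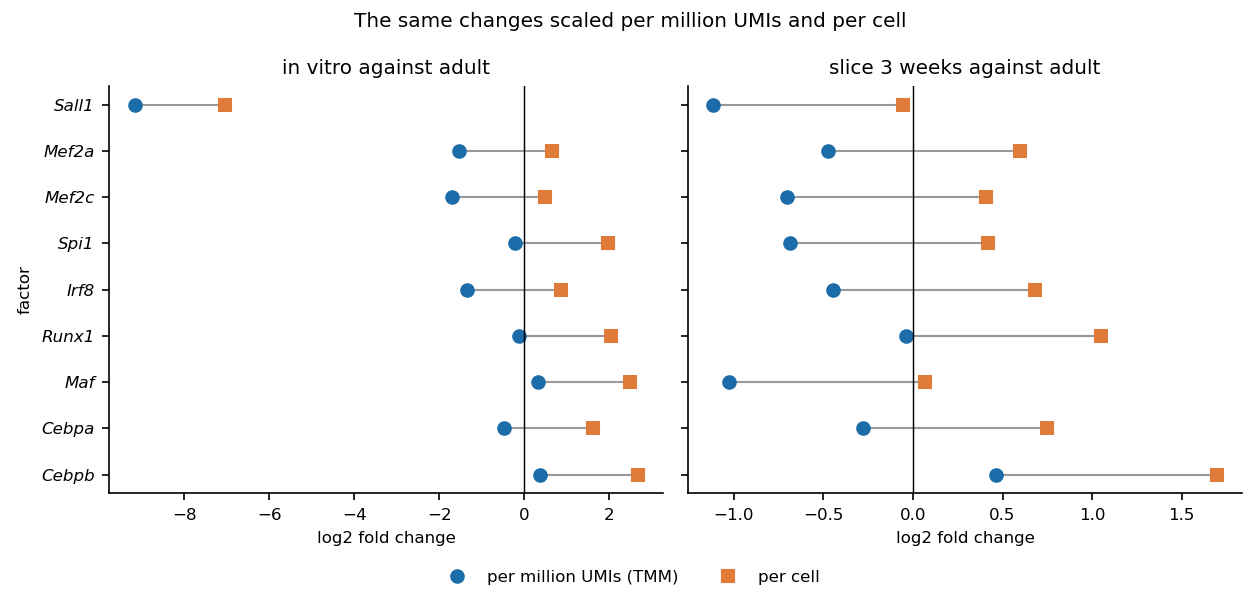
Log2 fold change of each factor (rows) in vitro and at 3 weeks against adult, scaled to the library total with TMM factors (circles) and per cell (squares); the 2 panels have separate horizontal axes. In vitro, Sall1 was at −9.17 and −7.05, and Mef2c at −1.71 and 0.48; at 3 weeks, Sall1 was at −1.11 and −0.05.

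The slice 1 day and 1 week libraries held barcodes rich in neutrophil transcripts. Barcodes with over 1% of their UMIs from the 9 neutrophil markers numbered 68 of 518 and 114 of 1014 at 1 day, 25 of 148 and 1 of 61 at 1 week, and 0 in the other 6 libraries. In the thinned cells of these 4 libraries, Cebpb was found in 66.1% (59.0 to 72.8%) of 192 neutrophil-rich and 44.5% (42.0 to 47.1%) of 1505 other barcodes, and Spi1 in 76.0 and 58.9%. Mef2c was found in 4.69 and 41.3%, Irf8 in 7.29 and 49.9%, Maf in 0.521 and 14.95%, and Cebpa in 3.65 and 21.4%. Cebpb and Spi1 were thus more frequent in the neutrophil-rich barcodes, and Mef2c, Irf8, Maf and Cebpa less. Sall1, which neutrophils should lack, was found in 2 of 192 (1.04%, 0.126 to 3.71%) and in 51 of 1505 (3.39%) at the same depth. The first interval rests on 2 cells pooled over 4 libraries and is too wide to set these shares apart. Neutrophil transcripts were not limited to these barcodes, since 75.1% and all cells of the slice 1 day libraries, and all and 3.28% of the slice 1 week libraries, held 3 or more UMIs of the neutrophil markers. Leaving the neutrophil-rich barcodes out thus left neutrophil UMIs in the remaining cells. In a sum over cells, a level in fewer cells and a lower level per cell cannot be told apart. Without the neutrophil-rich barcodes, Cebpb differed from adult by 1.62 at 1 day (edgeR, adjusted p = 0.00112) and 1.26 at 1 week (0.0123), and Sall1, Mef2a, Mef2c and Maf kept their calls at both times. Without all barcodes holding 3 or more UMIs of other cell types, Cebpb was not called at 1 day (1.07, 0.220) or 1 week (1.121, 0.360), in a fit with fewer cells that left 0 in slice 1 day replicate 2 and slice 1 week replicate 1.

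**Figure D5:**
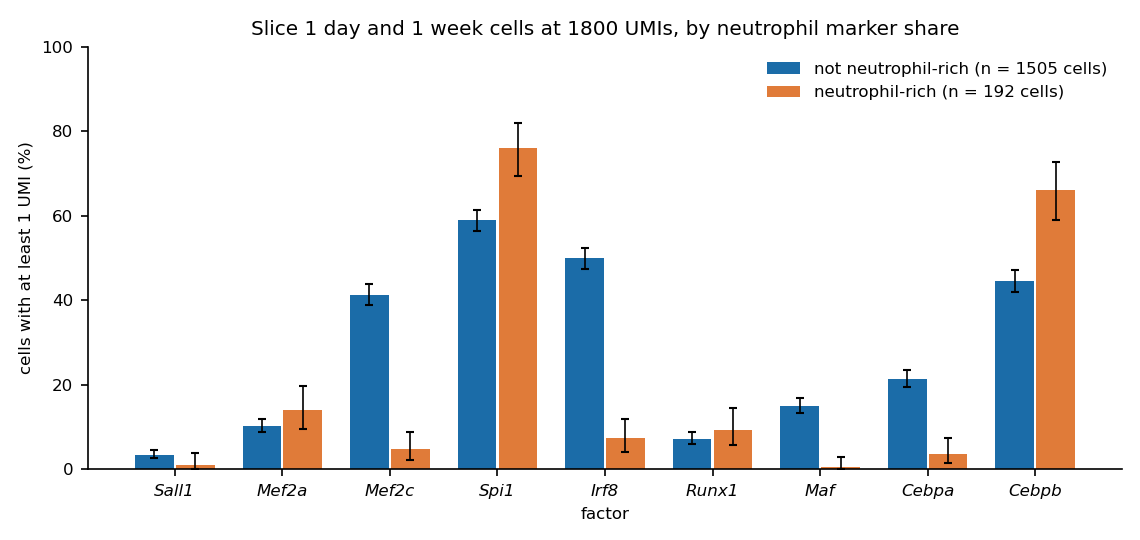
Percent of slice 1 day and 1 week cells with at least 1 UMI of each factor, thinned to 1800 UMIs and summed over 4 libraries, in 192 neutrophil-rich and 1505 other barcodes; bars start at 0 and error bars are exact 95% binomial intervals, which cover counting error only. Spi1 (76.0%) and Cebpb (66.1%) were higher in the neutrophil-rich barcodes, and Irf8 (7.29%) and Mef2c (4.69%) lower.

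Of 27 relatives of the 9 factors within their families, 21 passed the filter, of which 4 were higher and 8 lower in vitro than in adult, beside 22.4% of all genes higher and 28.5% lower. In the slices 6 were higher and 8 lower at 1 day (24.9 and 25.3% of all genes), 3 higher and 5 lower at 1 week (15 and 13.6%), and 3 higher and 7 lower at 3 weeks (17.9 and 17.5%). Their median was −0.59 in vitro and −0.51 at 3 weeks, beside −0.11 and −0.03 over all genes. Per cell the split in vitro was 17 higher and 1 lower, where 80.3% of all genes were higher and 4.7% lower. On that scale it was 14 and 1 at 1 day (67.9 and 3.49% of all genes), 8 and 0 at 1 week (44 and 1.35%), and 8 and 1 at 3 weeks (55.9 and 2.76%). Sall3, the relative of Sall1, was at 42.0 and 36.7 CPM in adult, 23.5 and 19.1 CPM at 3 weeks, and 0.128 and 0.225 CPM in vitro (−7.71, adjusted p = 3.87e-08, and −5.59 per cell). Irf2, an antagonist of Irf1, was at 120 and 143 CPM in adult and was lower in vitro (−1.04, 0.000154, but 1.17 per cell) and at 3 weeks (−1.13, 0.000223, but 0.000868 per cell). Cebpz was lower in vitro (−1.11, but 1.06 per cell), Irf1 at 3 weeks (−1.53, and −0.46 per cell), and Irf7, of the interferon response, was higher in vitro (1.45, 0.00534). Cebpe, a granulocyte factor named here after its values were seen, was at 18.3 and 57.6 CPM at 1 day, 103 and 5.12 CPM at 1 week and at most 0.259 CPM in the other libraries, in the order of the neutrophil markers.

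Among 47 other macrophage transcription factors, 44 were tested, and 11 were higher and 18 lower in vitro than in adult (22.4 and 28.5% of all genes), and 7 and 17 at 3 weeks (17.9 and 17.5%). Their medians were −0.33 and −0.22, beside −0.11 and −0.03 over all genes. The rises in vitro were led by Id3 (5.94), Tfec (4.57) and Bhlhe40 (4.04). Those at 3 weeks were led by Bhlhe40 (6.31), Klf4 (3.64) and Id1 (3.47), all from edgeR with adjusted p at or below 0.0108. In adult, Id3 (0.952 and 0 CPM), Tfec (0.952 and 0.386 CPM), Bhlhe40 (0.220 and 0.386 CPM) and Id1 (0.586 and 0.515 CPM) were near 0. The size of their folds is thus uncertain. Id3 in vitro was at 55.3 and 17.7 CPM, and Klf4 at 3 weeks at 26.1 and 58.0 CPM. Ets1 was the largest fall in both, at −4.66 in vitro and −1.45 at 3 weeks, followed in vitro by Batf3 (−2.10) and Ikzf2 (−1.90) and at 3 weeks by Nfkb1 (−1.38) and Batf3 (−1.30). Per cell, Ets1 stayed lower in vitro (−2.46), Batf3 and Ikzf2 turned to 0.03 and 0.23, and the split became 38 higher and 1 lower of 44, beside 80.3 and 4.7% of all genes, and at 3 weeks 21 higher and 0 lower, beside 55.9 and 2.76%.

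Genes known as markers of microglia were lower in every culture. All 12 listed were lower in vitro, at 1 day and at 1 week, and 10 of 12 at 3 weeks, with medians of −5.91, −4.19, −2.46 and −2.03. Of all genes 28.5, 25.3, 13.6 and 17.5% were lower in these comparisons, with medians of −0.11, −0.06, −0.08 and −0.03. Siglech (−12.18), Sparc (−11.54) and Slc2a5 (−10.95) fell most in vitro, and Slc2a5 (−3.58), P2ry12 (−2.95) and Siglech (−2.67) at 3 weeks. In vitro, Siglech was at 0.385 and 0.0561 CPM, Sparc at 1.57 and 0.168 CPM, and Slc2a5 at 0.514 and 0.140 CPM. Levels this near 0 leave the order and size of the in vitro falls uncertain. Per cell 10 of the 12 were lower in vitro, 10 at 1 day, 7 at 1 week and 8 at 3 weeks, with 1 higher in vitro and at 3 weeks, where 4.7, 3.49, 1.35 and 2.76% of all genes were lower. From 1 day to 3 weeks 11 of 12 were higher, beside 13.9% of all genes, with a median of 2.52, and Sall1 was higher too. The study of these libraries also describes genes of this kind, so the list is not independent evidence of its direction.

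Of 20 myeloid genes with known PU.1 or C/EBP control, 19 were tested, and 4 were higher and 11 lower in vitro than in adult, beside 22.4% of all genes higher and 28.5% lower. In the slices 6 were higher and 9 lower at 1 day (24.9 and 25.3% of all genes), 4 higher and 6 lower at 1 week (15 and 13.6%), and 6 higher and 7 lower at 3 weeks (17.9 and 17.5%). The medians were −0.65 in vitro and −0.23, −0.40 and 0.13 in the slices, beside −0.11 in vitro and −0.06, −0.08 and −0.03 over all genes. Lyz2, encoding lysozyme, was at 400 and 379 CPM in adult, 3408 and 3745 CPM at 3 weeks and 36986 and 36561 CPM in vitro (6.56 in vitro and 3.20 at 3 weeks). Cybb, of the NADPH oxidase, was higher in vitro (5.54) and at 3 weeks (3.14), as were Il1b in vitro (3.36) and Tnf at 3 weeks (3.28). Csf3r and Csf1r, the receptors for G-CSF and CSF1, were lower in vitro (−2.93 and −1.91) and at 3 weeks (−1.29 and −1.40), with Ctss lower in vitro (−1.90) and Fcgr1 at 3 weeks (−1.06), all in edgeR with adjusted p at or below 0.00260. Per cell the list split into 14 higher and 2 lower in vitro, with 11 higher and 1 lower for slice 1 day, 8 higher and 0 lower for slice 1 week, and 11 higher and 0 lower for slice 3 weeks, beside the per-cell shares of all genes given for the relatives. Per cell, of these falls only that of Csf3r in vitro (−0.79) kept its call, while Csf1r (0.24) and Ctss (0.27) in vitro turned sign, as did Fcgr1 at 3 weeks (0.03).

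Genes with profiles most like each factor were taken from 3916 genes by Pearson correlation of log2 CPM over the 10 libraries, as a description. These were Jam2, Nav3 and Sparc for Sall1 (r from 0.987 to 0.991), Pnisr, Zfp644 and Slc29a3 for Mef2a (0.961 to 0.974), Ppcdc, Slc44a2 and Nrip1 for Mef2c (0.981 to 0.989), and Pwwp2a, Ldhb and P2ry13 for Irf8 (0.984 to 0.996). For Maf they were Slc9a9, Plxna4os1 and Pkig (0.966 to 0.982), and for Cebpb Naa15, Cap1 and Rab6a (0.912 to 0.923). For Spi1 they were D1Ertd622e, Cd47 and 1700123O20Rik (0.926 to 0.937), for Runx1 Ptk2b, Ccl5 and Tmem11 (0.877 to 0.939), and for Cebpa Lrch4, Zfp36l1 and Elk3 (0.797 to 0.862). The 10 libraries fall into 5 groups, and the libraries of a group share their depth and culture.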

How the data were processed

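The authors deposited a table of UMI counts per gene and barcode for each of the 10 libraries, made with Cell Ranger 1.3.0 and the mm10 build per the submitters' processing notes; the values are counts, not normalized. Barcodes were dropped (578) when mitochondrial UMIs passed 5%, when genes fell short of 400 or when UMIs passed 30000, limits that the methods of the study give, and no doublet caller was run. The study also set outlier cells aside with t-SNE, a step not repeated here. It counted as microglia the smaller part of the slice 1 week barcodes used here. Its smallest and largest other samples also held fewer cells than those used here. Counts of the 19059 cells were summed per library and tested with edgeR 4.0.16 (R 4.3.3; quasi-likelihood, TMM, minimum count 10, prior count 2 for log2 CPM), with Benjamini-Hochberg adjustment over 12157 genes and a biological coefficient of variation of 18.3%. Total UMIs per library (385373 to 39689540) set the precision, and Poisson and binomial intervals are exact, at 95%, and cover counting error only. Alternatives were DESeq2 1.42.0, other scalings, filters, thinning to 1800 UMIs, covariates and leaving out libraries. The fit was tested on simulated data. Replicate numbers did not pair the libraries, with correlations of deviations from −0.112 to 0.0941 over 10 pairs of groups.

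All 9 members were named. From each list the 3 largest called rises and falls in vitro and at 3 weeks were named, among genes whose log2 CPM averaged 3 or more, and for each member the 3 genes most correlated with it, among those averaging 5 or more. The members and lists were chosen with earlier results of these data known. Neutrophil-rich barcodes, and the fit without both slice 1 week libraries, were alternatives chosen after seeing the data. Monocyte markers (6 genes) summed to 150 to 1144 CPM in the slices, 37.5 and 88.9 CPM in vitro, and 7.35 and 5.44 CPM in adult. Promoter sequences and positions are from RefSeq.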

Additional observations from a re-analysis of the deposited data

Results flagged for a closer look

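The change from adult differed between in vitro and slice 3 weeks microglia for 5 of the 9 factors, by the edgeR test of that difference, which is the contrast of in vitro against slice 3 weeks. In it 4 were lower and 1 higher, beside 19.9% of all genes lower and 13.3% higher (5.54 and 52.7% per cell). On the log2 scale the in vitro change less the slice change was −8.06 for Sall1, −1.06 for Mef2a, −1.004 for Mef2c, −0.89 for Irf8 and 1.36 for Maf. Counted per cell, Sall1 (−7.00) and Maf (2.43) were still called, while Mef2a (0.05), Mef2c (0.07) and Irf8 (0.18) were not. Without barcodes holding 3 or more UMIs of other cell types, Maf differed by 0.28 (adjusted p = 0.386, edgeR) and was not called. The Mef2a difference was −0.40 without slice 3 weeks replicate 2. The levels of the border-associated macrophage markers are given above, and their part in the Maf difference was not tested.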

How the results depend on the processing

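Of 1233 fold changes of the 9 factors over 23 alternatives, 1089 kept their direction and side of the threshold, 42 lost the call, 19 gained one and 83 changed sign, and without counts per cell 53 of 1179 changed sign. Counts per cell moved the number of called factors to 7 in vitro (6 higher, 1 lower) and 2 at 3 weeks (both higher), where 80.3 and 55.9% of all genes were higher. They turned the log2 fold change in vitro to 0.64 for Mef2a, 0.48 for Mef2c, 1.97 for Spi1, 0.86 for Irf8, 2.03 for Runx1 and 1.61 for Cebpa. At 1 day they turned Mef2c to 0.29, Spi1 to 1.47, Irf8 to 0.46 and Cebpa to 1.05. At 1 week they turned Mef2c to 0.15, Spi1 to 0.96, Irf8 to 0.60, Runx1 to 0.99, Maf to 0.40 and Cebpa to 1.101. At 3 weeks they turned Mef2a to 0.60, Mef2c to 0.41, Spi1 to 0.42, Irf8 to 0.68, Runx1 to 1.05, Maf to 0.067 and Cebpa to 0.75. In vitro against slice 3 weeks they turned Mef2a to 0.048, Mef2c to 0.071, Irf8 to 0.18, Runx1 to 0.99, Cebpa to 0.86 and Cebpb to 0.98, and from 1 day to 3 weeks Cebpa to −0.30. By construction this setting also counts the higher UMIs per cell of the cultures. Removing barcodes with 3 or more other-type UMIs left 0 cells in slice 1 day replicate 2 and slice 1 week replicate 1. Calls of factors were then lost at 1 week and from 1 day to 3 weeks, as were most calls over all genes. Among the lost calls, the log2 fold changes at 1 week were −2.58 for Sall1, −1.64 for Mef2a, −1.34 for Irf8, −0.90 for Maf and 1.121 for Cebpb, and from 1 day to 3 weeks 2.46 for Sall1, 1.55 for Mef2a, 0.89 for Irf8, 0.91 for Maf and −0.61 for Cebpb. In vitro against slice 3 weeks, Maf (0.28) and Mef2a (−1.04) lost their calls and Spi1 (0.86) gained one. Spi1, Runx1 and Maf then turned to 0.15, 0.30 and −0.69 in vitro, with Maf called lower there. Runx1 turned to −0.34 at 1 day. In vitro against slice 3 weeks, Runx1 and Cebpb turned to 0.33 and 0.43. From 1 day to 3 weeks, Spi1 and Runx1 turned to 0.0056 and 0.31. Fewer cells and libraries entered that fit.

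Among small differences, Runx1 turned to 0.042 in vitro, 0.030 at 3 weeks and 0.012 in vitro against slice 3 weeks with no filter on low counts, to −0.017 at 1 day with library size alone, to 0.12 at 1 week and 0.053 in vitro against slice 3 weeks after thinning, to 0.023 at 3 weeks with only the groups compared, and to 0.0033 at 3 weeks without the slice 1 week libraries. Cebpa at 1 week turned to 0.053 with DESeq2, 0.059 with only the groups compared, 0.29 with the study label as covariate, 0.0082 with the replicate block and 0.047 without neutrophil-rich barcodes. The study label as covariate also turned Cebpa to 0.047 in vitro against slice 3 weeks and to −0.13 from 1 day to 3 weeks. With only the larger study label, Cebpb turned to −0.13 in vitro, Runx1 to 3.8e-05 at 3 weeks, and Cebpa to 0.045 at 1 day, 0.43 at 1 week, 0.045 at 3 weeks and −8.5e-05 from 1 day to 3 weeks.

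Leaving out each library in turn left a lone library in its group. Calls of factors were lost in some of these fits and gained in others, where the calls over all genes changed too. Signs changed for Runx1 (−0.18 to 0.088), Cebpa (−0.82 to 0.060) and Cebpb (−0.029 to 1.08) in vitro, for Spi1 (−0.11 to 0.027), Runx1 (−0.0096 to 0.29) and Cebpa (−0.73 to 0.087) at 1 day, for Cebpa (−0.35 to 0.48) at 1 week, and for Runx1 (−0.092 to 0.067) and Cebpa (−0.61 to 0.22) at 3 weeks. They also changed for Runx1 (−0.11 to 0.084), Cebpa (−0.25 to 0.0021) and Cebpb (−0.23 to 0.15) in vitro against slice 3 weeks, and for Cebpa (−0.0042 to 0.25) from 1 day to 3 weeks. A lone library was assumed to vary like the other groups. With the replicate block, called factors numbered 4 in vitro, 6 at 1 day, 6 at 1 week and 4 at 3 weeks. They numbered 5 in vitro against slice 3 weeks and 6 from 1 day to 3 weeks. Called genes in all numbered 6082, 5980, 3364, 4156, 3891 and 3096 in that order, and no call of a factor changed. DESeq2 (−0.57) and the fit of only the groups compared (−0.56) lost Irf8 at 1 week, and the latter also Mef2a in vitro against slice 3 weeks (−1.01). No filter on low counts lost Spi1 from 1 day to 3 weeks (−0.58). Mef2c was called from 1 day to 3 weeks with no filter (0.60), after thinning (0.66), with the study label as covariate (0.61), with only the larger study label (0.60) and without slice 3 weeks replicate 1 (0.60). Library size alone shifted the median of all genes by −0.30 to −0.08, Cebpa was then called in vitro (−0.78) and Irf8 at 3 weeks (−0.65), and Irf8 lost its call from 1 day to 3 weeks (0.58). Where no cause is given above, it was not tested. Depth limits the slice 1 week values most, with 148 and 61 cells.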

Other observations

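Cells with 2 or more UMIs of 6 cell-cycle markers were set beside the other cells of their library, after thinning to 1800 UMIs and without neutrophil-rich barcodes, in the 6 libraries with enough such cells. Cebpa was lower in these cells in 6 of 6 libraries, with differences of −13.04 to −2.56 UMIs per 100 cells. Cebpb was higher in 5 of 6, with differences of −57.5 to 14.4, the lowest in slice 1 day replicate 1, where 31 such cells held 45.2 UMIs per 100 cells and the other cells 103. Mef2a (−15.9 to 1.14) and Spi1 (−26.4 to 15.8) were lower in 5 of 6. These are values of cells within libraries, and no test was made of them.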
